A study of Mus musculus with 17 samples.

Results

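Fibrinolysis and coagulation genes were followed across cultured tubular cells and ageing kidneys. The 9 genes were taken from a list of names and matched to the Ensembl identifiers of the count files, which held 53313 gene identifiers common to all 17 libraries. The matching itself used no expression value, but the 9 genes were chosen with earlier results of these data known. Counts of called genes set beside the share of all genes are therefore a description. Plasminogen activators cut plasminogen into plasmin, the protease that dissolves fibrin, and serpins such as protease nexin-1 trap these activators. On the clotting side, tissue factor starts the cascade on cell surfaces, factor V speeds the making of thrombin, and tissue factor pathway inhibitor and thrombomodulin hold the cascade back. In the kidney, urokinase is made by tubular cells and released into urine, and both systems also act on matrix turnover and cell signalling.

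Primary tubular epithelial cells (PTEC), which the labels call proximal tubular cells, were grown out of tubular fragments from collagenase-digested kidneys of wild-type C57BL/6Rj mice, spelled C57BL/6JRj in the study's methods. Non-senescent PTEC were collected at day 6 without irradiation (n = 4 cultures), and senescent PTEC at day 16 after 10 Gy of irradiation (n = 4), so irradiation and time in culture changed together and cannot be told apart. Whole kidneys came from untreated wild-type male mice of the same strain at 3, 12 and 24 months of age (n = 3 mice each). RNA was read as poly(A) libraries, with 26963442 to 35409144 reads counted on genes in PTEC, 37311247 to 49471409 in 3-month-old, 54097073 to 59718029 in 12-month-old and 62761670 to 66894790 in 24-month-old kidneys. Values are CPM, counts scaled to a common library size with TMM, fold changes are on the log2 scale with their standard error (SE), and adjusted p-values are from edgeR's quasi-likelihood test with Benjamini-Hochberg adjustment over all genes tested. A gene was called where its adjusted p lay below 0.05 and its log2 fold change beyond 0.5 in either direction.

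All 8 PTEC libraries were poor in markers of differentiated tubule, with a summed level of 10 proximal tubule genes of 173 to 674 CPM in non-senescent and 134 to 277 CPM in senescent PTEC against 13903 to 25423 CPM in kidneys. Non-senescent culture 4 alone set the upper end, and the other non-senescent cultures lay at 173 to 206 CPM, within the senescent range. The transporters Slc34a1, Slc5a12 and Slc22a6, which define the proximal tubule, were at means of 9.12, 0.577 and 0.13 CPM in non-senescent and 0.0248, 0.0662 and 0.00675 CPM in senescent PTEC. These 3 genes were not tested in PTEC. Of the 6 proximal tubule genes tested there, 3 were called lower and 0 higher in senescent PTEC (19.7% and 20.1% of all genes). Lrp2, Aqp1 and Cubn were tested and not called. A marker list of other cells also differed. The summed level of 10 fibroblast and pericyte genes was 125 to 249 CPM in non-senescent and 481 to 988 CPM in senescent PTEC, where 6 of 9 tested genes were called higher and 1 lower (20.1% and 19.7% of all genes). Dcn, 1 of the 6, was tested only because it was high in the senescent group, so its call carries no support beside this background. The 3-month-old kidneys and the older ones were counted on different gene sets (54146 and 55401 identifiers), a split that runs along with age, but the 9 genes carried the same identifier version in every file.

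The promoter windows of Serpine2, Tfpi and F5 are shown, since Serpine2 and Tfpi rose in senescent PTEC and Serpine2 and F5 in old kidneys. The table of RefSeq promoters used here held a window of 300 bases for 6 of the 9 genes. The windows of Serpine2 (chr1:79858616-79858915, minus strand), F5 (chr1:164151585-164151884, plus strand) and Tfpi (chr2:84476710-84477009, minus strand), all on GRCm38.p6, run from 250 bases before to 50 bases after a start site, and capitals mark a GC box (GGGCGG) or a TATA box (TATAAA) on either strand.
Serpine2: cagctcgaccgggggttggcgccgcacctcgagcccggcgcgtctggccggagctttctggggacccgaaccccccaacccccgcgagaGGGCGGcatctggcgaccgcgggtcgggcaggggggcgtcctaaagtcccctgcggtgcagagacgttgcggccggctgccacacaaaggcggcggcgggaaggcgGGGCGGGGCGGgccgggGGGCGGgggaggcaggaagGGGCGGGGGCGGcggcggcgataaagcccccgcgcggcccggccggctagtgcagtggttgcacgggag
F5: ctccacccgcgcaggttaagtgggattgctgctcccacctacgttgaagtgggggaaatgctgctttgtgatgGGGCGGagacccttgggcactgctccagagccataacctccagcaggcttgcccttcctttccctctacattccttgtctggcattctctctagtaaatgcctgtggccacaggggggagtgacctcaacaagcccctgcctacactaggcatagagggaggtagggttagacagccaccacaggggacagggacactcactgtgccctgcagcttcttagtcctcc
Tfpi: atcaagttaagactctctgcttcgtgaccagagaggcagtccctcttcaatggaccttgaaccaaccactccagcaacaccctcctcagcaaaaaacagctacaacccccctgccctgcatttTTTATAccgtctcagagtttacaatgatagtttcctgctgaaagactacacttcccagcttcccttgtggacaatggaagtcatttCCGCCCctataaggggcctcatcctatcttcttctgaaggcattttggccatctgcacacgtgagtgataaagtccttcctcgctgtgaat
The Serpine2 window held 6 GC boxes, some side by side, and no TATA box, while the F5 and Tfpi windows held 1 GC box each. This Tfpi window also held the letters of 1 TATA box, on the opposite strand and far before the start site. RefSeq gave Tfpi a second start, whose window held 1 GC box and no TATA box. The start site of the Serpine2 window lay 2515 bases from the GENCODE gene start, inside the gene. Those of F5 and of the printed Tfpi window lay 3 and 16 bases away. A GC box occurred in 35.7% and a TATA box in 13.6% of 32851 RefSeq promoter windows of the same length. An AP-1 site (TGANTCA, either strand, 7.81% of windows) occurred in the windows of Plaur and F3 and in 1 of the 3 windows of Tfpi2, but not in those printed or in the second window of Tfpi.

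In senescent PTEC 4 of the 9 genes rose, namely Serpine2, F5, Tfpi and Plat, and no gene of the 9 was called lower. Among the 15434 genes tested 20.1% were called higher and 19.7% lower. F5 was tested only because it was high in the senescent group, so the count to set beside this background is 3 of the other 8 genes. The count of 0 lower genes was the same with DESeq2 and limma-voom, and 0 of the 9 fell at an unadjusted p under 0.05 in edgeR without pairing of the cultures. The shares of all genes under these other rules are not given here, so these counts are not read against a background. Without F5 the median log2 fold change of the other 8 genes was 0.15, beside -0.002 over all genes tested.

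The plasminogen activators moved unevenly. Plat (tissue-type plasminogen activator, chr8:22757727-22782844) was at 402, 342, 316 and 377 CPM in the 4 non-senescent cultures and at 599.8, 654, 541 and 504 CPM in the senescent cultures. Every senescent culture lay above every non-senescent one, a separation upwards that 22.1% of tested genes showed. Plat rose 1.6-fold (log2 fold change 0.68, SE 0.141, adjusted p = 0.00396). Plau (urokinase, chr14:20836660-20843385) was at 862, 823, 954 and 1249 CPM in non-senescent PTEC and at 346, 241, 1227 and 756 CPM in senescent PTEC. Senescent cultures 1 and 2 were low and senescent culture 3 was nearly as high as the highest non-senescent culture, so the groups overlapped. The log2 fold change of Plau was -0.60 (SE 0.44, adjusted p = 0.3), and without senescent culture 3 it was -1.11 with an adjusted p of 0.0371. With same-numbered cultures paired by a replicate block it was -0.87 with an adjusted p of 0.054.

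Plaur encodes the urokinase receptor, which holds urokinase on the cell surface (chr7:24462484-24475968). Its level was 110.4, 78.5, 117 and 87.6 CPM in non-senescent and 61.5, 55.1, 99.8 and 77 CPM in senescent PTEC. The groups overlapped, with senescent culture 3 again the highest of its group. The log2 fold change was -0.42 (SE 0.207, adjusted p = 0.126), and leaving out senescent culture 3 gave -0.60 with an adjusted p of 0.0337. The senescent culture was the lower one in 4 of 4 pairs, and with the replicate block the log2 fold change was -0.44 with an adjusted p of 0.0208, short of a call by its size alone.

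Serpine2, the gene of protease nexin-1, an inhibitor of thrombin, urokinase and tissue-type plasminogen activator (chr1:79794197-79861180), was at 14.2, 20, 17.1 and 17.9 CPM in non-senescent PTEC. In senescent PTEC it was at 206, 220.2, 235 and 148 CPM. The lowest senescent culture was several times above the highest non-senescent one. Serpine2 rose 11.7-fold (log2 fold change 3.55, SE 0.187, adjusted p = 2.99e-06), and its call held under each of the 18 alternatives, with log2 fold changes from 3.46 to 3.67. Tfpi2, a Kunitz-type inhibitor of plasmin and other serine proteases (chr6:3962595-3988919), was low in both groups, at 0.314 to 1.48 CPM in non-senescent and 0.189 to 1.28 CPM in senescent PTEC. It did not pass the test (log2 fold change -0.61, SE 0.655, adjusted p = 0.482).

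On the clotting side, F3 (tissue factor, chr3:121723537-121735048) was at 235, 213, 182 and 208 CPM in non-senescent PTEC and at 219.5, 185, 476 and 396 CPM in senescent PTEC. Senescent cultures 3 and 4 were high, and cultures 1 and 2 lay within the non-senescent range. F3 was not called (log2 fold change 0.61, SE 0.282, adjusted p = 0.107), but without senescent culture 2 its log2 fold change was 0.80 with an adjusted p of 0.0341.

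F5 (factor V, chr1:164151838-164220277) rose from a level near 0. It was counted with 5, 4, 2 and 5 reads in the non-senescent and 67, 65, 60 and 30 reads in the senescent cultures. These are 0.154, 0.131, 0.0784 and 0.185 CPM against 2.16, 2.18, 1.62 and 1.04 CPM, with no overlap. The log2 fold change was 3.62 (SE 0.377, adjusted p = 8.42e-05). Pooled over cultures and scaled to library size, 222 against 16 reads gave a ratio of 12.6, with an exact Clopper-Pearson 95% interval of 7.61 to 22.5 that covers counting error only. F5 passed the filter on low counts only through the senescent group, so a difference was a condition of its being tested. An antisense gene, Gm16548, and a pseudogene, Gm16588, overlap F5, and both had 0 reads in all 8 PTEC libraries.

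Tfpi (tissue factor pathway inhibitor, which blocks tissue factor with factor VIIa, chr2:84432855-84476775) was at 19, 18.1, 13 and 21.5 CPM in non-senescent and at 65.5, 63.1, 31.3 and 59.1 CPM in senescent PTEC. Senescent culture 3 was the lowest of its group and still above every non-senescent culture. Tfpi rose 3.05-fold (log2 fold change 1.61, SE 0.249, adjusted p = 0.000783), and this call held under all 18 alternatives. Thbd (thrombomodulin, the thrombin receptor that turns thrombin towards activation of protein C, chr2:148404466-148408188) was at 21.7, 27.5, 10.9 and 15.2 CPM and at 14.6, 16.1, 15.5 and 14.7 CPM. The senescent cultures lay within the wide non-senescent range (log2 fold change -0.31, SE 0.254, adjusted p = 0.357).

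**Figure D1:**
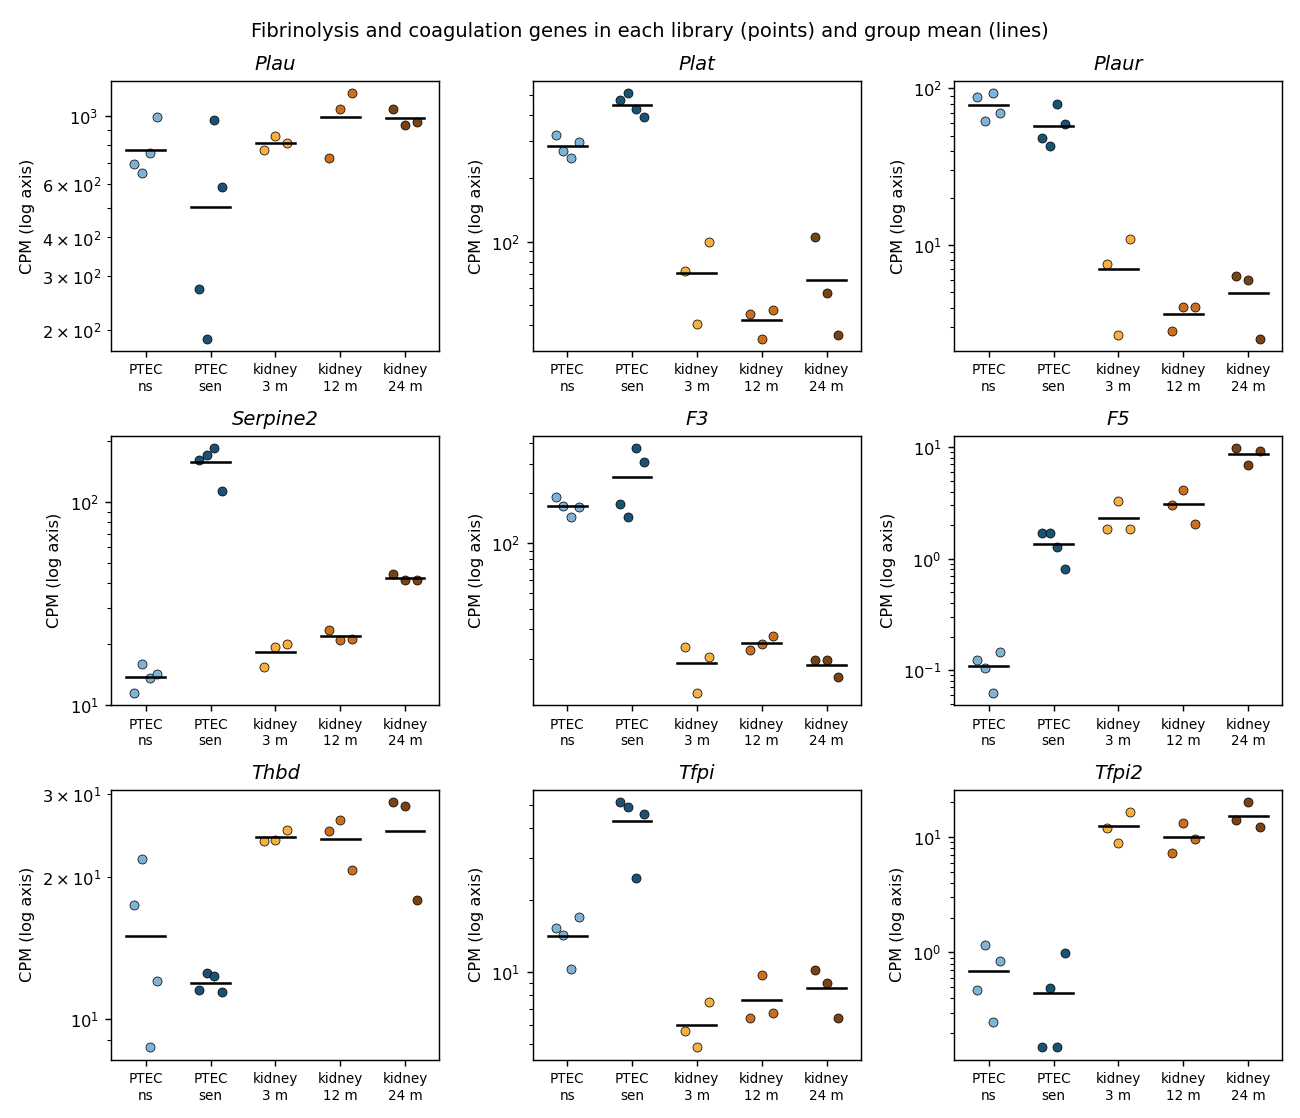
Level of each of the 9 genes in CPM scaled over all 17 libraries (vertical log axes), with 1 point per culture or mouse and a line at the group mean, for non-senescent (ns) and senescent (sen) PTEC and for kidneys at 3, 12 and 24 months (m). Serpine2 and F5 lie higher in senescent than in non-senescent PTEC and higher in 24-month-old than in younger kidneys, while Plaur, Plat and F3 are higher in both PTEC groups than in any kidney group.

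Genes that moved with the 4 risers in senescent PTEC included mesenchymal markers. Acta2, smooth muscle actin, was at a mean of 695 against 60.5 CPM (log2 fold change 3.52, edgeR adjusted p = 8.84e-05), and Postn, periostin, at 41.9 against 4.35 CPM. Dcn and Lum, which define interstitial fibroblasts, were at 0.765 and 0.0334 CPM in senescent and at 0.0893 and 0.0185 CPM in non-senescent PTEC. Dcn was higher in every senescent culture, and Lum was not tested. Of the marker genes called, Dcn and the podocyte gene Nphs1 were tested only through the senescent group, and Kcnj1 of the distal nephron and Pf4 of platelets only through the non-senescent group. The calls of these 4 genes carry no support, though the counts given for their lists include them. The counts of called markers stand beside 20.1% of all genes called higher and 19.7% called lower, and those of leukocytes and endothelium lie near these shares. The summed level of the 10 macrophage and leukocyte genes was 68.6 to 103 CPM in non-senescent and 47.4 to 177 CPM in senescent PTEC, and 2 of 8 tested genes of that list were called lower. Over the 10 endothelial genes it was 83.8 to 245 and 69.1 to 239.9 CPM (2 of 10 called lower), and over the 6 podocyte genes 72.1 to 163 and 168 to 361 CPM (2 of 4 tested called higher). For the 5 platelet genes it was 37.5 to 110 and 11.7 to 29.1 CPM (2 of 3 tested called lower), and for the 8 genes of the loop of Henle and distal nephron 7.98 to 41.4 and 0.802 to 1.62 CPM (4 of 4 tested called lower). Their part in the changes of the 9 genes was not tested.

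Across age, Serpine2 and F5 were the genes of the 9 that rose in 24-month-old against 3-month-old kidneys, and none was called lower. Of 17067 genes tested in kidneys 1.89% were called higher and 0.451% lower in this comparison. At an unadjusted p under 0.05, 0 of the 9 fell in edgeR, beside 8.23% of all genes. DESeq2 and limma-voom also called 0 lower, beside 2.34% and 0.439% of all genes. In whole kidneys, fewer cells of a type and less RNA per cell cannot be told apart.

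Serpine2 was at 12.5, 15.6 and 16.2 CPM in the 3 kidneys of 3 months, at 18.7, 16.6 and 17.1 CPM at 12 months and at 36.1, 33.2 and 33.8 CPM at 24 months. The 24-month-old kidneys lay above all others and close together, a separation that 11.9% of tested genes showed from 3-month-old and 13.5% from 12-month-old kidneys. Between 3 and 24 months Serpine2 rose 2.33-fold (log2 fold change 1.22, SE 0.139, adjusted p = 0.00383), a call kept under all 18 alternatives with an adjusted p of at most 0.0314. From 3 to 12 months its log2 fold change was 0.24 (SE 0.138, adjusted p = 0.451). Between 12 and 24 months it rose 1.97-fold (log2 fold change 0.98, SE 0.138, adjusted p = 0.0196). With any 1 kidney of the 2 later ages left out, this last call was lost (adjusted p from 0.0584 to 0.105), and it was also lost with the replicate number as a block in all kidneys (adjusted p = 0.116). With the block and these 2 ages alone, an alternative chosen after seeing the data, the call stood (adjusted p = 0.000796).

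F5 was at 1.5, 2.7 and 1.48 CPM at 3 months, at 2.43, 3.32 and 1.64 CPM at 12 months and at 8.06, 5.59 and 7.5 CPM at 24 months. All 3 of the oldest kidneys lay above the rest, which overlapped with each other. Of all tested genes 11.9% lay apart upwards from 3-month-old and 13.5% from 12-month-old kidneys. From 3 to 24 months F5 rose 3.71-fold (log2 fold change 1.89, SE 0.332, adjusted p = 0.0239). Its log2 fold change was 0.38 from 3 to 12 months (adjusted p = 0.672) and 1.51 from 12 to 24 months (SE 0.325, adjusted p = 0.061). That adjusted p was 0.145 with the replicate block in all kidneys and 0.00751 with the block and these 2 ages alone, an alternative chosen after seeing the data. F5 was called between 12 and 24 months in 5 of 19 alternatives, among them DESeq2 (adjusted p = 0.000536), limma-voom (0.046) and no filter on low counts (0.0373). The call between 3 and 24 months was lost without 3-month-old kidney 1 (adjusted p = 0.134) or 3 (0.0835) and without 24-month-old kidney 1 (0.0853) or 3 (0.0735), and with the replicate block (0.0645). The antisense gene Gm16548 had 0 to 21 reads in the 9 kidneys, where F5 itself had 57 to 528.

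Urokinase was abundant in kidneys of every age. Plau was at 631, 700.3 and 657 CPM at 3 months, at 582, 843 and 956 CPM at 12 months and at 861, 750.2 and 779 CPM at 24 months. The oldest kidneys lay above the youngest, as 11.9% of tested genes did, but the test was not passed (log2 fold change 0.27, SE 0.185, adjusted p = 0.434). Plat was at 59.3, 32.9 and 79.9 CPM at 3 months, at 36.1, 27.6 and 38.1 CPM at 12 months and at 85.5, 45.8 and 29.2 CPM at 24 months. Its spread within an age was wide, and the log2 fold change between 3 and 24 months was -0.10 (SE 0.411, adjusted p = 0.895). Plaur lay between 2.07 and 8.77 CPM in the 9 kidneys, with a log2 fold change of -0.50 (SE 0.488, adjusted p = 0.55) from 3 to 24 months.

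F3 was at 10.1 to 19.2 CPM at 3 months, 18.2 to 22.1 CPM at 12 months and 12.7 to 15.9 CPM at 24 months. Its log2 fold change was -0.05 (SE 0.228, adjusted p = 0.913) from 3 to 24 months, and the 24-month-old kidneys lay below the 12-month-old ones, as 12.2% of tested genes did, without passing the test (log2 fold change -0.43, adjusted p = 0.411). Tfpi was at 4.62, 3.93 and 6.03 CPM in the youngest and at 8.31, 7.23 and 5.25 CPM in the oldest kidneys. These groups overlapped, and the log2 fold change was 0.51 (SE 0.25, adjusted p = 0.309). Thbd was at 19.7 ± 0.535 CPM (SD, n = 3) at 3 months, 19.3 ± 2.28 CPM at 12 months and 20.3 ± 4.95 CPM at 24 months. Tfpi2 was at 10.1 ± 3.06, 8.07 ± 2.42 and 12.4 ± 3.26 CPM (SD, n = 3 each), and it was called between no ages except from 12 to 24 months with the block and these ages alone (log2 fold change 0.63, adjusted p = 0.0181, against 0.526 with the block in all kidneys).

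No gene of the 9 was called between 3 and 12 months, where 2.58% of all tested genes were. None had an unadjusted p under 0.05 in edgeR, beside 8.95% of all genes higher and 7.58% lower. None was called in DESeq2, beside 3.93% higher and 3.77% lower, or in limma-voom, beside 0.756% in each direction. Between 12 and 24 months Serpine2 was the only one called, beside 0.896% of all tested genes called higher and 0.434% lower. DESeq2 and limma-voom each called 2 of the 9 higher, Serpine2 and F5, and 0 lower there, beside 3.46% and 0.861% of all genes higher and 2.25% and 0.469% lower.

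Markers of other cells also differed between ages. The summed level of the fibroblast and pericyte genes was 226 to 259.7 CPM at 3 months, 266 to 270.2 CPM at 12 months and 301 to 363 CPM at 24 months, though edgeR called none of these 10 genes. At an unadjusted p under 0.05 in edgeR, 3 of the 10 were higher and 1 lower from 3 to 24 months (9.97% and 8.23% of all genes), and 4 were higher from 12 to 24 months (8.06%). Macrophage and leukocyte genes summed to 129 to 209, 191 to 228 and 208 to 269 CPM, and 2 of 10, Cd3e and Cd79a of T and B cells, rose from 3 to 24 months (1.89% of all genes). Proximal tubule genes summed to 13903 to 23788, 16144 to 25423 and 19790 to 25258 CPM at the 3 ages, with 2 of 10 called higher from 3 to 24 months (Slc5a2 and Slc5a12), beside the same 1.89% of all genes. The sum of the loop of Henle and distal nephron was 5484 to 7248, 4163 to 5103 and 5773 to 7337 CPM, so that the 12-month-old kidneys lay below all others. Endothelial genes summed to 288 to 393, 459 to 485 and 293 to 488 CPM, with the 12-month-old kidneys above every 3-month-old one. For podocytes the sum was 209.8 to 467, 155 to 376 and 274 to 381 CPM, and for platelets 9.41 to 16.9, 12.7 to 15.7 and 12.4 to 13.5 CPM. From 3 to 12 months edgeR called Aqp2 of the collecting duct lower and Cd79a higher, 2 of 58 tested markers, beside 2.58% of all genes. The part of these cells, and of the greater read depth of the older kidneys, in the changes of Serpine2, F5 and F2 was not tested.

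**Figure D2:**
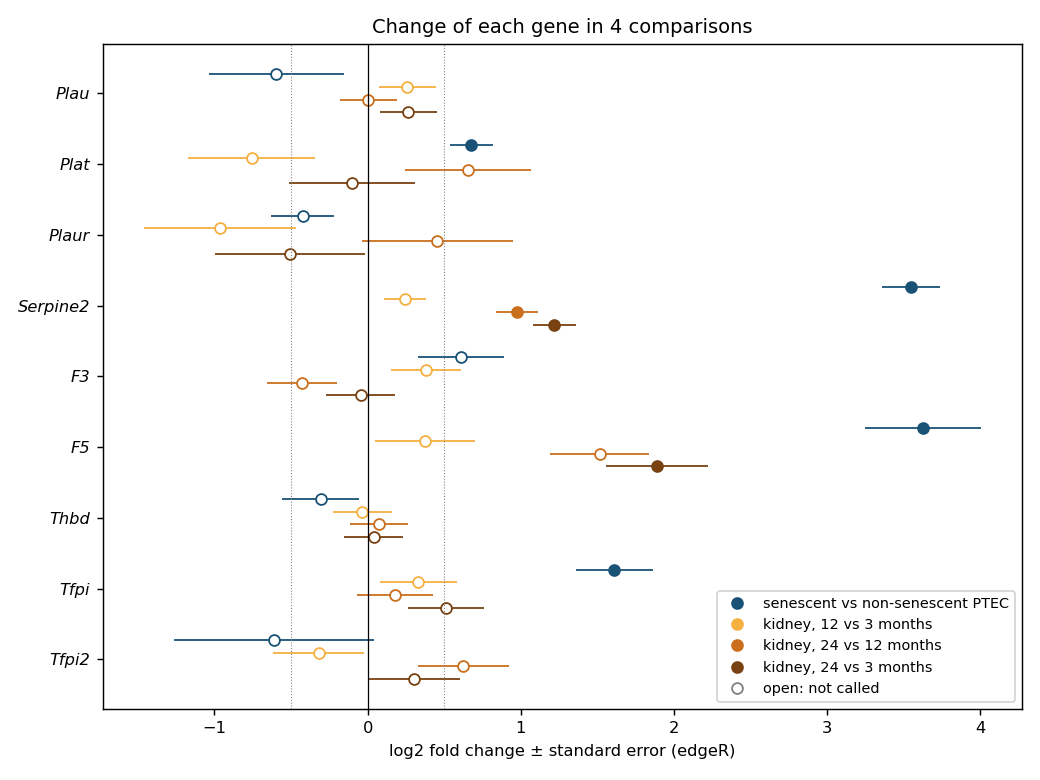
Log2 fold change with its standard error for each of the 9 genes in senescent against non-senescent PTEC and between kidney ages, with filled points for called genes, open points for the others and dotted lines at the fold change threshold. Serpine2 is called in 3 of the 4 comparisons and F5 in 2, including PTEC, where it was tested only through the senescent group, Tfpi and Plat are called in PTEC alone, and the other 5 genes are open throughout.

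Whether the effect in culture differed from that in old kidneys was tested as a difference of both log2 fold changes over all 17 libraries. It was called for 3 of the 9 genes, each with the larger rise in culture, where 11.6% of 17999 tested genes were called in that direction and 12.2% in the other. No gene of the 9 was called in the other direction, also with DESeq2 and limma-voom, and 0 had an unadjusted p under 0.05 in that direction in edgeR. For DESeq2, limma-voom and the unadjusted p the share of all genes is not given here, so those counts have no background. For Serpine2 the difference was 2.31 (SE 0.24, adjusted p = 3.69e-06). For F5 it was 1.72 (SE 0.515, adjusted p = 0.0231), and for Tfpi 1.07 (SE 0.37, adjusted p = 0.0437). The difference of F5 was not called without 3-month-old kidney 2 (adjusted p = 0.0669) or 24-month-old kidney 2 (0.059), and that of Tfpi was not called in 13 of 23 alternatives (adjusted p up to 0.142). Plat rose in PTEC and was not called in kidneys, but its difference of 0.76 (SE 0.431, adjusted p = 0.22) did not pass the test. Without 24-month-old kidney 1 that difference was 1.21 with an adjusted p of 0.038.

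The level of each gene was then set side by side over the 5 groups. Scaled over all libraries and per kilobase of exon, Plau was the most abundant of the 9 in every group, from 213 ± 149.9 CPM per kilobase in senescent PTEC to 417 ± 99.3 in 12-month-old kidneys. Its neighbouring groups overlapped apart from the step from 3-month-old to 24-month-old kidneys. Levels set across PTEC and kidneys depend on the scaling, and with library totals in place of TMM they were 1.23 to 1.31 times as high in PTEC and 0.791 to 0.826 times as high in kidneys. With library totals non-senescent PTEC had the highest mean of Plau, and all neighbouring groups of Plau overlapped. In non-senescent PTEC F3 followed at 65.9 ± 7.17, Plat at 45.8 ± 5.02 and Plaur at 29.9 ± 5.7 CPM per kilobase (SD, n = 4). In 3-month-old kidneys Plat stood at 11.4 ± 4.72, F3 at 7.47 ± 2.28, Tfpi2 at 7.12 ± 2.2, Thbd at 6.54 ± 0.212 and Plaur at 2.69 ± 1.57 CPM per kilobase (SD, n = 3). Serpine2 was among the lowest there, at 2.2 ± 0.299, and reached 5.11 ± 0.202 in 24-month-old kidneys and 19.1 ± 3.74 CPM per kilobase in senescent PTEC. Its 3 upper steps did not overlap, and non-senescent PTEC overlapped with 3-month-old kidneys. With library totals 3-month-old kidneys, at a mean of 14.8 CPM, lay below non-senescent PTEC at 17 CPM, which then overlapped with 12-month-old kidneys.

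Between non-senescent PTEC and 3-month-old kidneys, 4 of the 9 genes were called higher and 3 lower in PTEC, beside 32% and 35.5% of all genes. Plaur was 11.1-fold, F3 8.82-fold, Plat 4.03-fold and Tfpi 2.38-fold higher in PTEC, with edgeR adjusted p-values of 1.36e-06, 1.49e-07, 3.38e-05 and 0.000583. F5 was 20.8-fold, Tfpi2 18-fold and Thbd 1.62-fold lower in PTEC, with adjusted p-values of 4.71e-08, 2.1e-06 and 0.0163 in edgeR. The call of Thbd was lost without any 1 of the 3 kidneys (adjusted p from 0.0608 to 0.0713). Serpine2 (log2 fold change -0.41, adjusted p = 0.0401) and Plau (-0.08, adjusted p = 0.862) were not called. In this comparison cell makeup, culture, read depth and the gene set used for counting cannot be told apart. F5 passed the filter there through groups other than non-senescent PTEC. It had no overlap between non-senescent PTEC, senescent PTEC and 3-month-old kidneys, in this rising order, though senescent PTEC and these kidneys overlapped with library totals, and 33.4% of genes lay apart in the same direction between non-senescent PTEC and these kidneys. Tfpi2 kept overlapping levels among the 3 ages and among both PTEC groups, with a gap between PTEC and kidneys.

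Within a library, ratios of counts per kilobase do not depend on scaling between libraries. The ratio of Plau to Serpine2, of an activator to its inhibitor, was 144 to 244 in non-senescent and 3.83 to 18.2 in senescent PTEC. In kidneys it was 142 to 176 at 3 months, 109 to 195 at 12 months and 79 to 83.4 at 24 months. The oldest kidneys and the senescent cultures each lay below the other groups of their kind. Plat to Serpine2 was 22.7 to 37.6 in non-senescent and 3.05 to 4.53 in senescent PTEC, and 2.79 to 6.57 at 3 months and 1.15 to 3.14 at 24 months, where the ages overlapped. F3 to Tfpi, the initiator to its inhibitor, was 20.9 to 30.2 in non-senescent PTEC and 7.25, 6.35, 32.9 and 14.5 in senescent cultures 1 to 4. Senescent cultures 1, 2 and 4 lay below the non-senescent range and culture 3 above it. In kidneys this ratio was 5.57 to 8.99 at 3 months and 4.14 to 5.21 at 24 months. Plau to Plat was 5.66 to 8.74 in non-senescent PTEC and 0.972 to 5.98 in senescent PTEC. These ratios restate the levels above and were not tested.

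**Figure D3:**
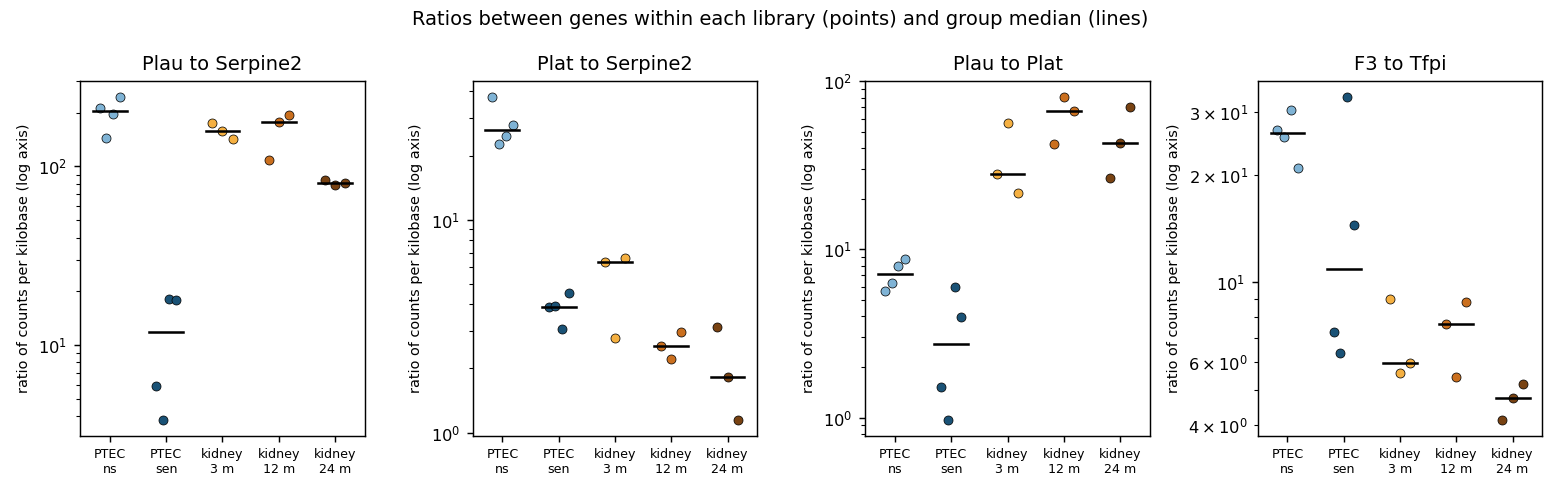
Ratio of counts per kilobase of exon between a pair of genes within each library (vertical log axes), with 1 point per culture or mouse and a line at the group median, for PTEC (ns, non-senescent; sen, senescent) and kidneys at 3, 12 and 24 months (m). Plau to Serpine2 falls from 144 to 244 in non-senescent to 3.83 to 18.2 in senescent PTEC and is 79 to 83.4 in the oldest kidneys.

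The other genes of the 2 systems were taken as 39 genes in 6 groups by role. In PTEC 22 of them passed the filter on low counts, of which 6 were called higher and 7 lower (20.1% and 19.7% of all genes). Among fibrinolysis inhibitors Serpinf2, the plasmin inhibitor alpha-2-antiplasmin, and Cpb2, the carboxypeptidase that protects fibrin from plasmin, were at means of 1.51 and 2.81 CPM in non-senescent and 0.0993 and 0.135 CPM in senescent PTEC. Both were tested only because they were higher in the non-senescent group, so their 2 calls carry no support and 5 of the 7 lower genes remain to be set beside the background. The median log2 fold change of the other 20 genes was 0.28.

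Of the genes that bind or clear plasminogen and its activators, Lrp1, the endocytic receptor that takes up protease-serpin complexes, rose from 39.1 to 196 CPM (log2 fold change 2.32, adjusted p = 0.00294). Anxa2 and S100a10, which form a complex that binds plasminogen on the cell surface, fell from 1501 to 709 and from 442 to 261 CPM (adjusted p = 0.00177 and 0.0281). Among clotting factors F8, factor VIII, rose from 1.07 to 4.2 CPM, while Kng2, a kininogen, and Fga, the fibrinogen alpha chain, fell from 13.4 to 1.15 and from 4.85 to 1.53 CPM. Pros1, protein S, the cofactor of activated protein C and of Tfpi, rose from 46.5 to 138 CPM (log2 fold change 1.57, adjusted p = 0.00191), and Proc, protein C, fell from 8.44 to 2.36 CPM. The thrombin receptor F2r rose from 327 to 522 CPM, and both enzymes of the vitamin K cycle rose, Ggcx from 10.4 to 21.2 and Vkorc1 from 5.09 to 11.2 CPM. The adjusted p-values of F8, Kng2, Fga, Proc, F2r, Ggcx and Vkorc1 in edgeR were 0.00346, 0.00105, 0.039, 0.00345, 0.0221, 0.00449 and 0.00192. The call of Fga was lost without non-senescent culture 1, 2 or 4 or senescent culture 1, 3 or 4 (adjusted p up to 0.096), that of S100a10 without non-senescent culture 1 or 3 or senescent culture 1, 2 or 4 (up to 0.0821) and that of F2r without senescent culture 1 or 2 (up to 0.0664). Fga was also lost with no filter on low counts (adjusted p = 0.0523), and S100a10 and F2r with a log2 threshold of 1. F8, Kng2, Anxa2, Lrp1, Cpb2 and Vkorc1 overlap other annotated genes, and Kng2 has a close copy in Kng1, so their counts are uncertain where reads are shared.

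In kidneys 32 of the 39 genes were tested, and edgeR called F2, prothrombin, alone. It rose from 1.58 CPM at 3 months to 3.21 at 12 months (log2 fold change 1.02, adjusted p = 0.0334) and 3.57 at 24 months (1.18, adjusted p = 0.0171). The call at 24 months was lost without 3-month-old kidney 1 or 3 or 24-month-old kidney 1 or 2 (adjusted p up to 0.1), and that at 12 months without 3-month-old kidney 1 or 3 or any 12-month-old kidney (up to 0.15). Both calls were also lost with the replicate block (adjusted p = 0.0509 and 0.0701), and that at 12 months with the compared ages alone (0.0939). From 3 to 24 months DESeq2 called 4 of the 32 genes higher and 0 lower, beside 5.13% and 2.34% of all genes. At an unadjusted p under 0.05 in edgeR 11 were higher and 2 lower, beside 9.97% and 8.23%. From 3 to 12 months DESeq2 called 3 higher and 2 lower (3.93% and 3.77% of all genes), and the unadjusted counts were 7 and 4 (8.95% and 7.58%). Limma-voom called 1 higher and 0 lower in both, beside 1.62% and 0.439% of all genes from 3 to 24 months and 0.756% in each direction from 3 to 12 months. None of the 32 was called between 12 and 24 months with edgeR or limma-voom. At an unadjusted p under 0.05 in edgeR, 6 were higher and 2 lower (8.06% and 7.19% of all genes), and DESeq2 called 2 higher (3.46%). F2r, which rose in PTEC, was at 47.4 against 23.7 CPM in 24-month-old and 3-month-old kidneys (adjusted p = 0.0909).

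**Figure D4:**
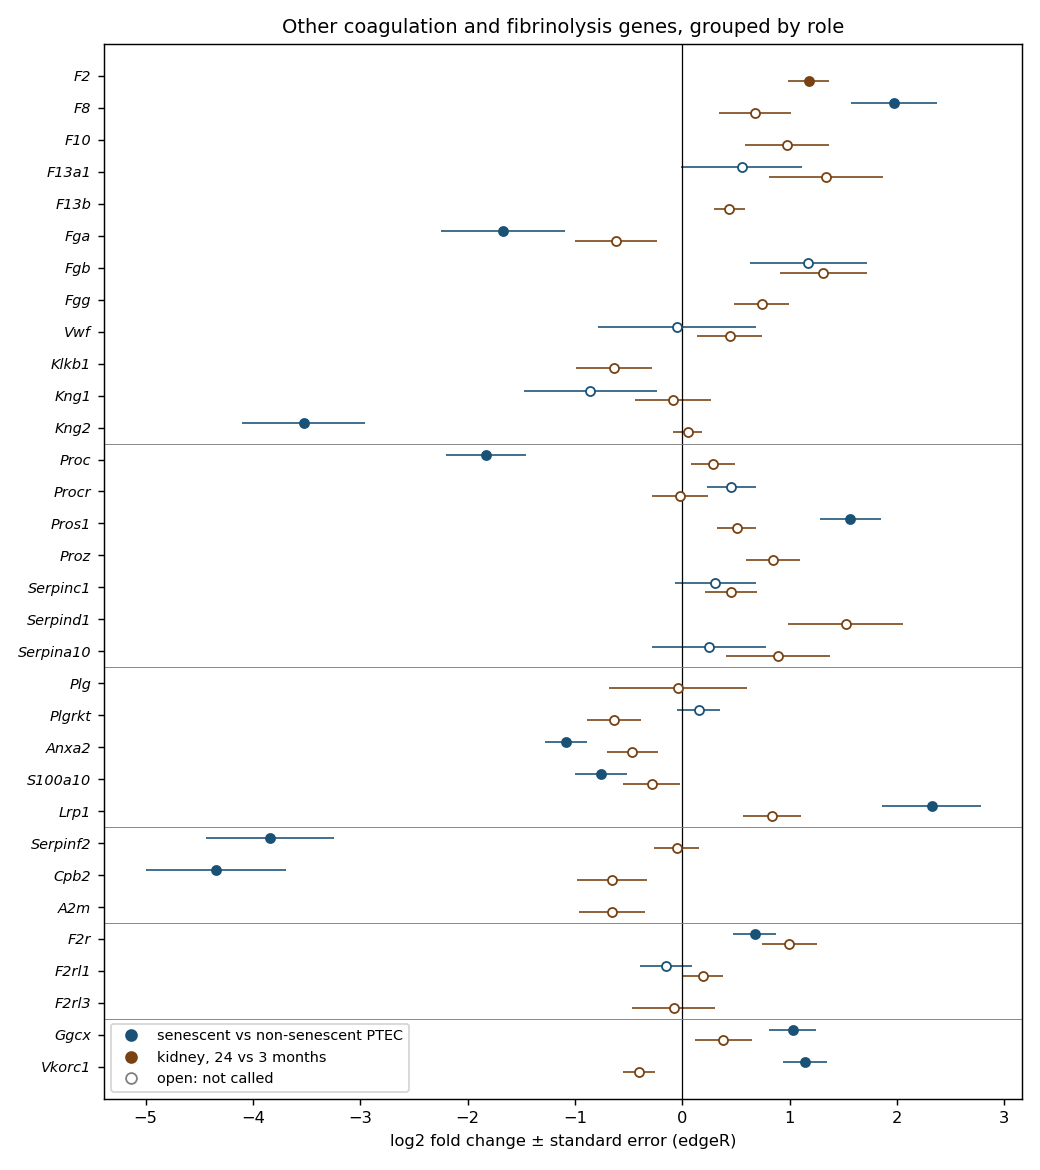
Log2 fold change with its standard error for the other coagulation and fibrinolysis genes that were tested, in senescent against non-senescent PTEC and in 24-month-old against 3-month-old kidneys, with filled points for called genes and lines between role groups (from the top, clotting factors and fibrinogen, anticoagulant proteins and receptors, plasminogen binding or clearance, fibrinolysis inhibitors, protease-activated receptors and the vitamin K cycle). In PTEC 6 genes are called higher, up to Lrp1 at 2.32, and 7 lower, of which Serpinf2 and Cpb2 were tested only through the non-senescent group, whereas F2 is the only gene that edgeR calls in kidneys, where DESeq2 calls 4.

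The genes most like each of the 9 over the 17 libraries were sought by the Pearson correlation of log2 CPM among 13939 genes. The libraries share culture or tissue and are not independent points, so the correlations are a description of these libraries. Serpine2 was most like Ptprq (r = 0.964) and P2ry6 (0.96), and F5 most like Omd (0.976) and Ces2e (0.969). Tfpi was most like Pdgfd (0.977) and Dkk3 (0.976), Tfpi2 most like Pcdh12 and Arhgef15 (both 0.971), and Thbd most like Entpd1 (0.926). F3 was most like Tgif1 and Tnfaip3 (both 0.989), Plaur most like Akr1b8 and Tes (both 0.987), and Plat most like Vopp1 (0.984) and Pvr (0.979). Plau had the weakest likeness, with Large2 (0.873) and Pls1 (0.866).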

How the data were processed

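RNA from 8 PTEC cultures and 9 mouse kidneys had been sequenced by the authors as stranded paired-end poly(A) libraries and processed with nf-core/rnaseq on GRCm38. The authors deposited raw counts per gene, with no normalization, which were used as deposited. The aligner, counting tool and strand setting are not given in the sources used here, so genes overlapping on opposite strands may share reads. The study names GENCODE release M 18. Symbols, positions and exon lengths came from release M 21, and promoters from RefSeq. PTEC, 3-month-old and older kidneys were counted on 3 gene sets of 53715, 54146 and 55401 identifiers. Identifiers were matched without their version. Groups come from the labels. Nothing says that the PTEC cultures came from separate animals, and p-values then measure the spread between cultures.

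The analysis used edgeR 4.0.16 in R 4.3.3, with DESeq2 1.42.0 and limma 3.58.1 for the alternatives, and matplotlib 3.10.9 in Python 3.11.15 for plots. Separate models were fitted to PTEC and to kidneys of all ages, and a joint one to all 17 libraries for levels, for PTEC against kidney and for the difference between effects. Libraries were scaled with TMM, low counts removed with filterByExpr, and groups compared with edgeR's robust quasi-likelihood test. Each adjusted p in the text comes from edgeR unless another tool is named beside it. Named genes are the 9 genes, the other pathway genes called in PTEC or kidneys, and the 2 genes most like each of the 9 (log2 CPM with a prior count of 2, mean of at least 1 CPM). Genes of the marker lists named as absent or most changed were chosen after their values were seen. The 9 genes, the lists of 39 other genes and the marker lists were chosen with earlier results of these data known. A few results that these rules name are not reported here. The tests were tested on simulated counts.

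PTEC cultures that the labels give the same number deviated together from their groups (r of 0.186 to 0.614 in 4 pairs), and the number was therefore read as a pairing. The 12-month-old and 24-month-old kidneys, which are different mice, also correlated by number (0.172 to 0.557), whereas 3-month-old kidneys did not (-0.701 to -0.034). In each of 21 pairs of replicates the counts differed by more than counting error (chi-square of 15.8 to 313 for each gene tested). The alternatives tried were scaling, filter, threshold, tool, a replicate block, the compared ages alone, shared gene versions alone and each library left out.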

Additional observations from a re-analysis of the deposited data

Results flagged for a closer look

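A test of the difference between the effect in culture and the effect of age set 3 of the 9 genes apart, where 11.6% of all tested genes were called in that direction. The log2 fold change of Serpine2 was larger in senescent against non-senescent PTEC than in 24-month-old against 3-month-old kidneys by 2.31 (edgeR adjusted p = 3.69e-06), that of F5 by 1.72 (adjusted p = 0.0231) and that of Tfpi by 1.07 (adjusted p = 0.0437). The difference of F5 was not called in 2 of 23 alternatives (adjusted p of 0.0669 and 0.059) and that of Tfpi in 13 of 23 (up to 0.142), among them limma-voom (0.071) and no filter on low counts (0.054). Serpine2 was called higher on both sides and Tfpi in PTEC alone, while F5 was called in kidneys and was tested in PTEC only through the senescent group. F5 started from 0.109 CPM in non-senescent PTEC and from 2.33 CPM in 3-month-old kidneys. Among the 18 groups of 4 cultures (9 genes in 2 groups), no culture lay apart from the others of its group by Dixon's test at the 95% level. With 4 cultures this test needs a gap of 0.829 of the range and can flag little. Senescent culture 3 of Tfpi, the lowest of its group, reached 0.813.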

How the results depend on the processing

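The calls of Serpine2 and Tfpi in senescent PTEC and of Serpine2 between 3 and 24 months held under each of 18 alternatives, as did that of F5 in PTEC, which was tested only through the group where it is high, and that of Plat in PTEC under all but a log2 threshold of 1. The replicate block, with same-numbered cultures paired, left 4 genes higher and 0 lower in PTEC, though Plaur reached an adjusted p of 0.0208. With each library left out in turn, 0 to 2 of the 9 genes were called lower in PTEC (2, Plau and Plaur, without senescent culture 3), 1 to 2 higher from 3 to 24 months and 0 higher from 12 to 24 months, and for the difference between effects 1 to 3 were called higher (1 without 24-month-old kidney 2) and 0 to 1 lower (Plau, without senescent culture 3). In kidneys the replicate block left 1 gene higher from 3 to 24 months, where numbers do not pair the mice, since F5 was lost (edgeR adjusted p = 0.0645). From 12 to 24 months, 1 gene was higher in the analysis reported, 0 with a threshold of 1 or the block in all kidneys, 2 with no filter on low counts, DESeq2, DESeq2 with the study's settings or limma-voom, and 3 (Serpine2, F5 and Tfpi2) with the block and these ages alone, an alternative chosen after seeing the data. The cause was not tested. Directions turned for uncalled genes with log2 fold changes near 0. With 1 library left out, Plat ranged from -0.607 to 0.214, F3 from -0.266 to 0.153 and Thbd from -0.073 to 0.224 from 3 to 24 months, Thbd from -0.101 to 0.058 from 3 to 12 months, Plau from -0.171 to 0.167 and Thbd from -0.041 to 0.262 from 12 to 24 months, Plau from -0.219 to 0.037 in PTEC against kidneys, and the difference between effects of Plaur from -0.454 to 0.384. F3 was at 0.003 from 3 to 24 months and the difference of Plaur at -0.089 with limma-voom, Thbd at 0.005 from 3 to 12 months with upper-quartile scaling, and Plau from 12 to 24 months at -0.058 with that scaling, -0.004 with no filter and -0.008 with a filter at 1 CPM. Over all genes, 322 were called higher and 77 lower from 3 to 24 months, beside 876 and 400 with DESeq2, 102 and 24 with the block and, with 1 kidney left out, 52 (without 3-month-old kidney 1) to 460 and 22 to 334 (without 3-month-old kidney 2). From 3 to 12 months 209 and 232 became 671 and 643 with DESeq2, 129 and 129 with limma-voom, 38 and 26 with the compared ages alone and, with 1 kidney left out, 31 to 249 and 21 to 467 (without 3-month-old kidney 2). From 12 to 24 months 153 and 74 became 591 and 384 with DESeq2, 0 and 0 with the block in all kidneys, 0 to 55 and 1 to 8 with 1 kidney left out, and 1297 and 903 with the block and these ages alone. In PTEC 3044 genes were called lower and 1686 at a threshold of 1. Depth limits F5 and Tfpi2 most, with 2 to 5 and 8 to 45 reads in non-senescent PTEC.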
